A study of Mus musculus with 21 samples.

Results

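The 9 alpha-defensin genes Defa24, Defa30, Defa38, Defa39, Defa21, Defa22, Defa29, Defa17 and Defa26 were selected on their level, each holding on average more than 0.2% of all counts over 21 RNA-seq libraries of sorted mouse Paneth cells. They are 9 of 55414 gene identifiers in the count table and 9 of the 28 protein-coding genes named Defa. The selection used the mean level only, so the order of the levels is a description and carries no test. Just inside the limit lay Defa26 at 0.257% and Defa17 at 0.261% of counts, and just outside it lay Defa40 at 0.144% and Defa34 at 0.0781%. The question was whether the make-up of the family differed between housing and water, or only its total.

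Alpha-defensins are short, cationic peptides that Paneth cells of the small intestinal crypt store in granules and release into the lumen, where they kill bacteria. They are made as precursors, and in the mouse the matrix metalloproteinase encoded by Mmp7 cuts off the acidic pro-segment. Canonical members fold around 6 conserved cysteines. A second kind known in mice, the cryptdin-related sequence peptides, shares the signal and pro-segment but has a longer, cysteine-rich mature part.

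The cells came from the small intestine of C57BL/6J mice and fell into 6 groups. Specific pathogen free (SPF) mice drank Milli-Q water (n = 3) or water with zinc sulfate (n = 3, 200 mM ZnSO4 as the labels state it) for 7 weeks. SPF-housed mice with broad-spectrum antibiotics during the last 3 of those weeks drank Milli-Q water (n = 4) or zinc water (n = 4), and germ-free mice drank Milli-Q water (n = 3) or zinc water (n = 4). All groups were sorted as Paneth cells by flow cytometry, the labels call the samples biological replicates, and no label gave an age or a sequencing batch, so a batch and a group cannot be told apart. The study describes its samples as cells of individual mice, so p-values measure the spread between mice, with the technical spread of each library included.

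Libraries held 9888174 to 16896714 counts. The Paneth list (Lyz1, Mmp7, Itln1, Ang4, Mptx2 and Defa24) summed to 25.1 to 43.0% of counts in every library, against 0.0265 to 0.162% for 10 enterocyte genes, 0.941 to 1.57% for 8 goblet cell genes and at most 0.000381% for 6 stromal genes, of which Col1a2 and Col3a1 were at 0 throughout. SPF zinc replicate 1 stood apart by 6228 counts of Xist, against at most 34 in the other libraries. The labels give no sex, and the study states that its datasets include mice of both sexes. The part of sex in the contrasts with the SPF zinc group was not tested. Results that rest on this library are given without it where a call changed.

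The 9 genes fell into sequence types, which matter here because near copies share reads. All 28 protein-coding Defa genes lie on chromosome 8 (GRCm39) within 709934 bases, 23 on the plus and 5 on the minus strand. The members on the plus strand (Defa24, Defa30, Defa17, Defa26, Defa21 and Defa22) each have 93 codons, and the coding part of their last exon, which holds the mature peptide, has 6 cysteine codons. The 3 members on the minus strand (Defa38, Defa39 and Defa29) have 116 codons with 11 cysteine codons in that exon, the cysteine-rich layout of the cryptdin-related type.

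The coding part of the last exon is shown for each gene because it encodes the mature peptide and shows how close the copies are. The next 4 lines hold the type led by Defa24, with capitals marking the bases that differ from Defa24 in an alignment, and with 2, 8 and 14 differences for Defa30, Defa17 and Defa26.
Defa24 (chr8:22225284-22225390, plus): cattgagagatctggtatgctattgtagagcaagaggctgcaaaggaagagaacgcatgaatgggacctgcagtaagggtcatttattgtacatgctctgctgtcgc
Defa30 (chr8:21625410-21625516, plus): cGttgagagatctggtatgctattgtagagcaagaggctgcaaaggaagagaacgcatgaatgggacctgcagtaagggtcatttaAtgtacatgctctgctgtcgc
Defa17 (chr8:22146548-22146654, plus): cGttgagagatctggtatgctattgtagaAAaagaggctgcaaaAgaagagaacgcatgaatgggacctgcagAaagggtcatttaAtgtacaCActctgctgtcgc
Defa26 (chr8:22108789-22108895, plus): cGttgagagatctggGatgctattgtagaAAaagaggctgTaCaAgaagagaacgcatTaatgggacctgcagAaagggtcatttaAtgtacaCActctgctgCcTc

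Defa21 and Defa22 form a pair that differs at 1 base of this exon, in capitals in Defa22, and at 2 of 279 bases of the whole coding sequence (99.3% identity).
Defa21 (chr8:21516330-21516436, plus): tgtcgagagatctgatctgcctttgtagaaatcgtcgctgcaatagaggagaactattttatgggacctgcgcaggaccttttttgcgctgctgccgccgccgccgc
Defa22 (chr8:21653062-21653168, plus): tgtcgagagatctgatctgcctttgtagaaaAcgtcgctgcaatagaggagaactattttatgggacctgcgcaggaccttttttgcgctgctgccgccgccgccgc

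The 3 minus-strand genes are given on their own strand, with capitals for the bases that differ from Defa38, 8 in Defa39 and 5 in Defa29.
Defa38 (chr8:21585093-21585268, minus): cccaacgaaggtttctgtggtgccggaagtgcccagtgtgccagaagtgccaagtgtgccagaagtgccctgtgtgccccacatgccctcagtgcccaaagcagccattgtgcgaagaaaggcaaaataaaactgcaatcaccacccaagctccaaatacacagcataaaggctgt
Defa39 (chr8:22192647-22192822, minus): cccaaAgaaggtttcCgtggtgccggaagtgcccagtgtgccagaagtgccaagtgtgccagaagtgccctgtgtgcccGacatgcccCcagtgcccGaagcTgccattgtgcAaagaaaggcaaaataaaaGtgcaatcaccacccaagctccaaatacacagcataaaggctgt
Defa29 (chr8:21816018-21816193, minus): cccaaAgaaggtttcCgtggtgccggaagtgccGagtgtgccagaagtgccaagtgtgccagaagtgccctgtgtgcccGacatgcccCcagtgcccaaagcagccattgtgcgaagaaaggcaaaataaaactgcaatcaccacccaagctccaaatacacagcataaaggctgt

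Over the whole coding sequence, identity between members ran from 66.3% to 99.3%. Defa24 and Defa30 were 98.6% identical, Defa38 and Defa29 97.4%, and Defa38 and Defa39 96.8%. Of the distinct 60-base windows in each gene's annotated transcripts, the share found in no other gene was 82.4% for Defa39, 78.6% for Defa24, 73.2% for Defa26, 63.4% for Defa29, 61.8% for Defa30 and 60.2% for Defa38. It was 44.4% for Defa21, 36.6% for Defa22 and 13.7% for Defa17. Defa21 and Defa22 shared 270 windows, Defa38 and Defa29 161, Defa24 and Defa30 129, and Defa17 and Defa30 70. A read that lies wholly in a shared window cannot be assigned by sequence, and the sources used here do not give how such reads were counted. The division of counts within these pairs is therefore uncertain. Of the 481 windows of Defa17, 66 were unique, 70 were shared with Defa30, 15 with Defa38 and 14 with Defa29. The rest were shared only with genes other than the members. The division of counts between Defa17 and those genes is thus uncertain too. Exons of Defa30 also overlap those of the pseudogene Defa-ps4 on the same strand, which held 2215 counts.

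The other 19 protein-coding Defa genes had a median of 16.7% unique windows, with 75.8% in Defa40 and none in 3 genes. Together they took a mean of 1.04% of the counts on protein-coding Defa genes. Of these 19 genes, 8 had fewer than 100 counts over all libraries and Defa36 had 0. The study's own transcript quantification with Salmon, over a larger set of samples, placed Defa2, Defa20, Defa23 and Defa36 among the abundant Defa transcripts. Here they held 9, 22, 4 and 0 counts. Defa3, abundant there too, held 72913 counts here. In an experiment shown as typical, that quantification placed most normalized transcripts on Defa genes, against at most 44.5% of counts here. The measures and sample sets differ, so the levels, family totals and family shares given here hold for this count table. Defa5 had no unique 60-base window and still held 192287 counts. The plot of counts against unique sequence shows the 7 genes of highest count at 36.6 to 82.4% unique windows, and Defa17, the eighth, at 13.7%. The part of read assignment in these levels and in the family total was not tested.

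**Figure D1:**
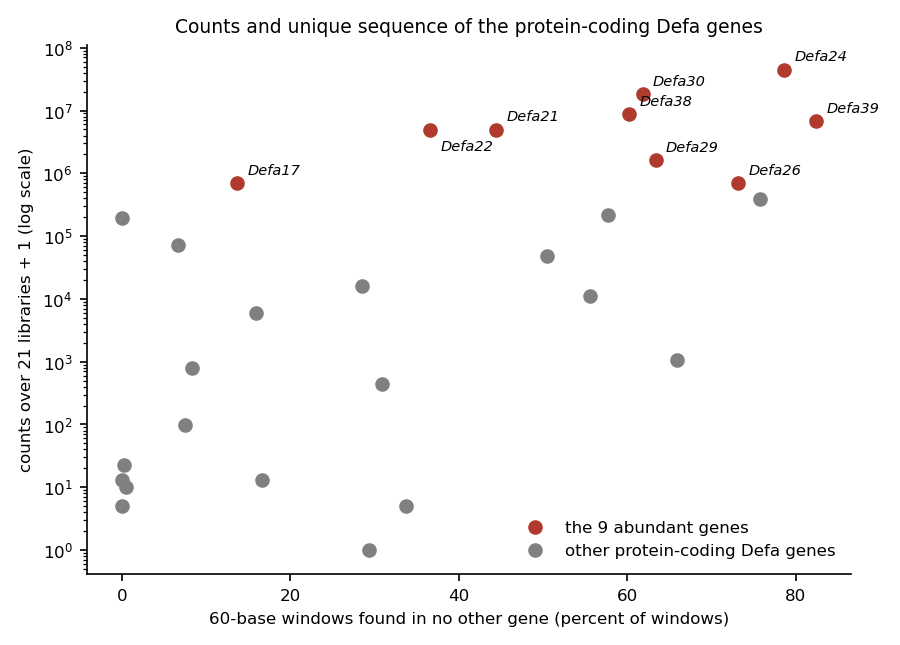
Each point is 1 of the 28 protein-coding Defa genes. The x axis gives the percent of its distinct 60-base transcript windows found in no other annotated gene, the y axis its counts summed over 21 libraries plus 1, on a log scale. The 9 abundant genes (red) lie at 13.7 to 82.4% unique windows and the other 19 (grey) at 0 to 75.8%.

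Sequence upstream of the annotated start of the main transcript was searched on both strands for 4 motifs, in windows from 250 bases before to 50 bases after the start. TCAAAG, the core of the site bound by Tcf/Lef factors, which carry Wnt signals to Paneth cell genes, was present in 6 of 9 windows, all of them in the plus-strand members. It occurred in 16.0% of 32851 RefSeq promoters of the same length (GRCm38.p6). TATAAA was in 8 of 9 windows against 13.6%. The metal-response core in its forms TGCACNC and TGCGCNC was in 0 of 9 windows, against 12.6% and 15.4%. A match is a description of the letters and not a bound site. The 9 windows include those of near copies, so they are not independent draws to set against the RefSeq shares. TATAAA starts at -74 from the annotated start in Defa38 and is absent from the window of Defa26. The 60 bases before the start are shown for 4 members of the different types, in which TATAAA starts at -28 or -29, with TATAAA in capitals.
Defa24 (chr8:22224447-22224506, plus): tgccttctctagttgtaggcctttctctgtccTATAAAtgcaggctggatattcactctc
Defa30 (chr8:21624573-21624632, plus): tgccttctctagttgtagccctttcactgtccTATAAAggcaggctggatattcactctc
Defa21 (chr8:21515498-21515557, plus): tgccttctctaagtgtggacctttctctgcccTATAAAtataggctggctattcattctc
Defa29 (chr8:21817037-21817096, minus): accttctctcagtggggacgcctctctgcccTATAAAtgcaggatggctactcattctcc

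Defa24 was the leading alpha-defensin gene in 21 of 21 libraries, with a mean of 16.6% of all counts. Per kilobase of annotated exon it held 38.6% of counts, against 12.7% for Defa30, which ranked next in 21 of 21 libraries. Defa38 followed with 5.50% per kilobase, then Defa39 with 4.27%, Defa21 with 4.23% and Defa22 with 4.19%, and the order of these 4 by counts changed between libraries. Defa29 (1.18% per kilobase), Defa26 (0.690%) and Defa17 (0.618%) were lowest. This order holds for annotated exon length. Divided by unique 60-base windows instead, all of a gene's counts gave 34.9% per kilobase of unique window starts for Defa24 and 16.8% for Defa30, then 11.4% for Defa22, 9.17% for Defa38, 8.37% for Defa21, 5.20% for Defa39, 3.96% for Defa17, 1.86% for Defa29 and 1.12% for Defa26. Among all genes, Defa24 had the highest count in 19 libraries and Lyz1, encoding the granule enzyme lysozyme, in the other 2, SPF Milli-Q replicate 2 and antibiotics zinc replicate 1.

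The total of the family in this count table varied 1.84-fold over the 21 libraries and was highest in germ-free mice. The 28 protein-coding Defa genes summed to 31.2, 24.1 and 33.5% of all counts in the SPF Milli-Q libraries and to 36.4, 33.8 and 35.0% in the SPF zinc libraries. After antibiotics the sums were 25.1, 32.8, 31.8 and 27.3% on Milli-Q water and 28.7, 26.4, 29.9 and 25.3% on zinc water. In germ-free mice they were 44.0, 44.5 and 42.8% on Milli-Q water and 41.6, 41.6, 39.3 and 42.0% on zinc water. All 7 germ-free libraries thus lay above all 14 others. In bulk samples, more transcript per cell and fewer other cells or other transcripts cannot be told apart.

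**Figure D2:**
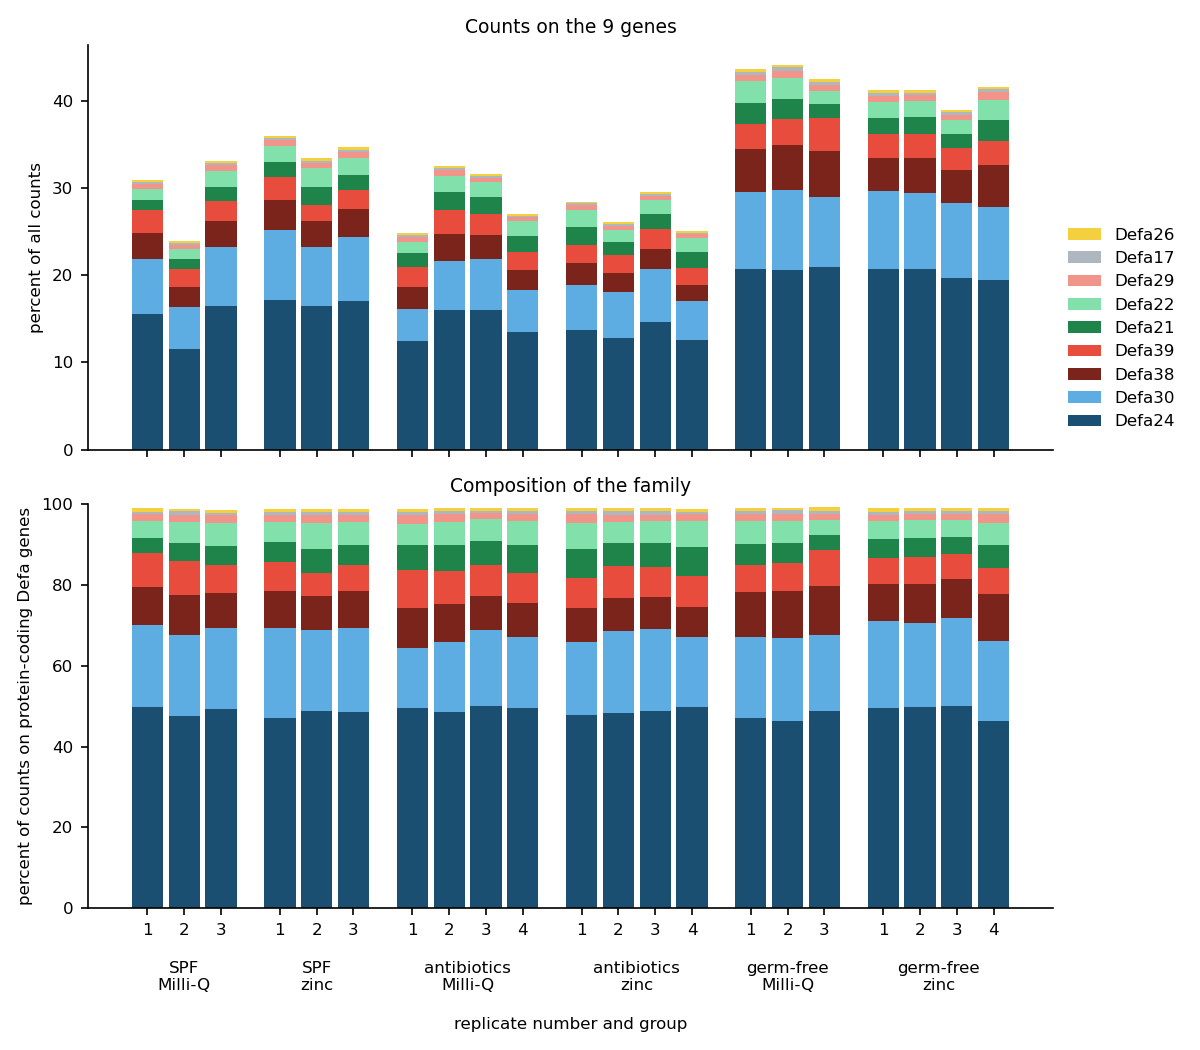
Each bar is a library, grouped by housing and water and labelled with its replicate number. The upper panel stacks the percent of all counts on the 9 genes and the lower panel the percent of counts on protein-coding Defa genes. The upper bars rise to 38.96 to 44.1% in germ-free libraries against 23.9 to 36.0% in the others, while in the lower panel Defa24 holds 46.4 to 50.1% in every library.

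Within the family, the share of Defa24 stayed between 46.4 and 50.1% of Defa counts over the 21 libraries, a ratio of highest to lowest of 1.08, while its share of all counts varied 1.82-fold. Defa26 varied 1.19-fold within the family and 2.08-fold in all counts. Defa30 varied 1.48-fold, Defa29 1.58-fold, Defa17 1.62-fold, and Defa38 and Defa39 each 1.65-fold within the family. The near copies Defa22 and Defa21 varied most, 1.83-fold and 1.95-fold. Moving from the composition of a library to that of another library of the same group meant reassigning a median of 3.16% of Defa counts (0.888 to 5.87% over 27 pairs), against 4.29% (1.27 to 7.80% over 183 pairs) between libraries of different groups. These distances overlapped over most of their range.

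The germ-free and SPF groups were compared on Milli-Q water to ask how the genes differ where no microbiota was ever present. All 9 members rose in the germ-free group, by a median of 1.52 on the log2 scale (1.34 to 1.83), in edgeR's quasi-likelihood test on counts scaled by TMM factors, with adjusted p from 1.25e-05 to 0.000404. Of all 13070 genes tested, 12.7% were called higher and 11.6% lower, with a median log2 difference of -0.03. For Defa24, the germ-free libraries held 20.8, 20.6 and 20.9% of all counts and the SPF libraries 15.6, 11.5 and 16.5%. The groups did not overlap, and the log2 difference was 1.46 ± 0.25 (SE, adjusted p = 0.000307). For Defa38, a cryptdin-related type gene, the germ-free libraries held 4.89, 5.25 and 5.17% and the SPF libraries 2.97, 2.35 and 2.93%, again without overlap. Its log2 difference was the largest of the 9, 1.83 ± 0.23 (SE, adjusted p = 1.25e-05).

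These differences depend in size on the scaling. TMM factors were 0.629 to 0.661 in germ-free Milli-Q libraries and 1.11 to 1.37 in SPF Milli-Q libraries. Scaled by library totals, the median log2 difference was -0.99 over all genes and 0.56 over the 9 members, and 8 of the 9 were still called higher, where 0.566% of all genes were called higher and 70.8% lower. The exception was Defa29, at 0.39 (adjusted p = 0.0571). Leaving out any of the 6 libraries left 9 of 9 members called under TMM. Some marker lists of other epithelial cells moved with the housing. Goblet cell markers overlapped between germ-free and SPF mice on Milli-Q water, at 1.06 to 1.21% against 1.05 to 1.57% of counts. Enterocyte markers did so at 0.0265 to 0.0627% against 0.0327 to 0.0764%, and both lists overlapped on zinc water. In the goblet list Spink4 held 71270 to 123323 counts per library, and each other gene at most 59863. Spink4 also followed the summed members over the libraries (Pearson r = 0.97). The goblet sum therefore does not show whether the other goblet genes stayed level. The 8 stem and cycling markers summed to 0.149 to 0.350% of counts in the 7 germ-free libraries against 0.325 to 0.609% in the others. Olfm4 held 12750 to 80432 counts per library and each other gene of this list at most 3445. This sum was thus led by Olfm4 in every library and says little of the others. The 5 tuft cell markers summed to 0.00681 to 0.00966% in germ-free libraries against 0.0109 to 0.0438%. The 8 enteroendocrine markers summed to 0.00357 to 0.00653% against 0.00718 to 0.0265%. Library measures moved too, with 0.599 to 1.21% mitochondrial counts and 15098 to 15536 genes detected in germ-free Milli-Q libraries, against 1.89 to 2.16% and 16876 to 17814 in SPF Milli-Q libraries. On zinc water the mitochondrial shares overlapped (1.19 to 2.78% against 2.13 to 2.61%), and 13747 to 16180 genes were detected against 16445 to 16707. Without mitochondrial counts the Defa sum was 44.1% in germ-free and 30.2% in SPF mice on Milli-Q water. The part of the other cell types and of the number of genes detected in the result was not tested.

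**Figure D3:**
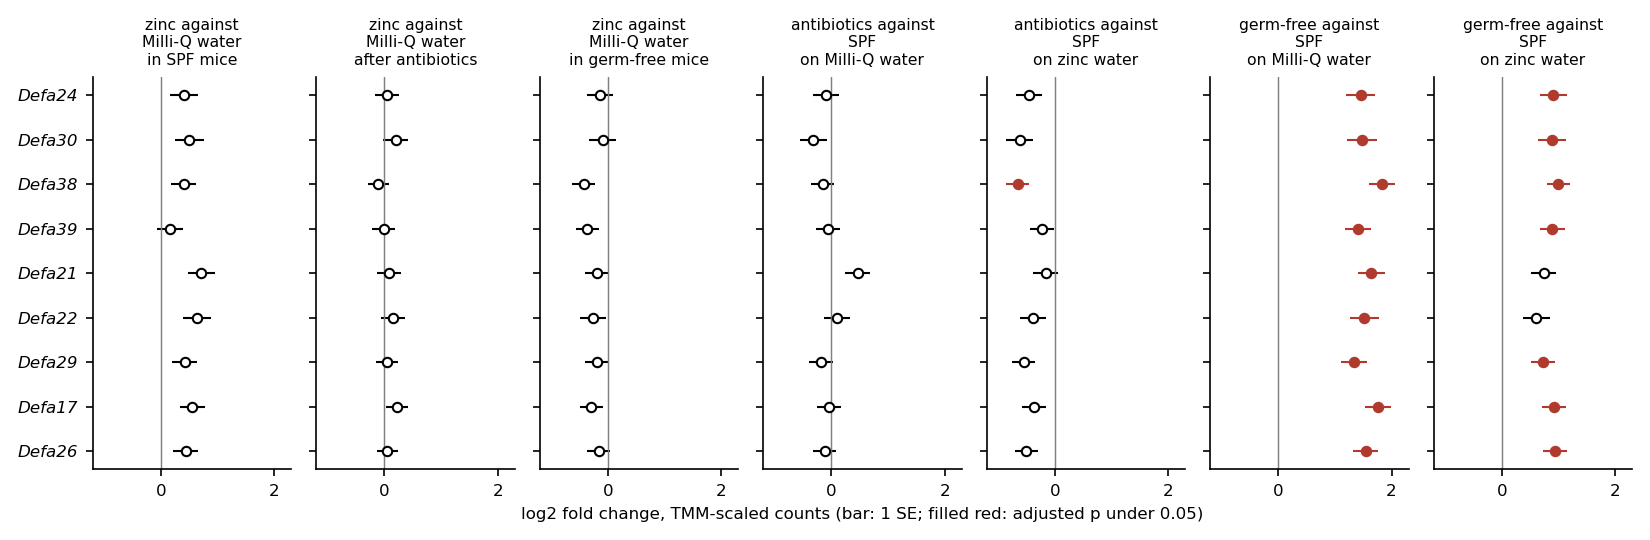
Log2 fold changes (x axis, TMM-scaled counts) of the 9 genes in 7 comparisons, with bars of 1 SE. Filled red points have an adjusted p under 0.05 in edgeR. All 9 points are red for germ-free against SPF on Milli-Q water, 7 for the same contrast on zinc water, Defa38 for antibiotics against SPF on zinc water, and none in the zinc contrasts.

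With zinc in the water, 7 of the 9 members rose in germ-free relative to SPF mice, with a median log2 difference of 0.90 over all 9 (0.61 to 1.00), where 3.47% of all genes were called higher and 2.38% lower. Defa38 had the lowest adjusted p, with 3.79, 3.97, 3.79 and 4.80% of all counts in the germ-free libraries against 3.38, 2.91 and 3.22% in the SPF libraries and a log2 difference of 1.00 ± 0.21 (SE, adjusted p = 0.00886). Defa21 (0.74 ± 0.22, adjusted p = 0.051) and its near copy Defa22 (0.61 ± 0.23, adjusted p = 0.116) did not pass. The count rested on single libraries. Leaving out SPF zinc replicate 2 gave 0 and leaving out SPF zinc replicate 3 gave 1. Leaving out germ-free zinc replicate 1 gave 2, leaving out germ-free zinc replicate 2 gave 4, and leaving out each of the other 3 libraries gave 6 to 8. Scaled by library totals, where the median of all genes was lower by 0.61, only Defa38 was called (0.37, adjusted p = 0.0287), and Defa22 turned to -0.04.

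On Milli-Q water the difference between germ-free and SPF mice can be split into the family's total and each member's share of it. The family sum rose by 0.58 on the log2 scale as a share of all counts, and each member's share of the family added between -0.17 (Defa29) and 0.32 (Defa38) to that. For Defa38 the change in share of all counts was 0.90, of which 0.58 was the family sum and 0.32 its own larger share. For Defa24 it was 0.53, made up of 0.58 and -0.04. On zinc water the family sum rose by 0.23, and the members' own shares added between -0.28 (Defa22) and 0.13 (Defa38), the largest of them exceeding the sum in size. Defa22 was thus at -0.05 as a share of all counts.

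Shares of the summed Defa counts do not depend on library scaling, and were tested for each member with two-sided exact permutations of the labels within water or within microbiome context. Of 27 such tests (9 members in 3 comparisons, unadjusted, and not independent since shares sum to a whole), 6 had a p of at most 0.05. For germ-free against SPF mice, only Defa38 did. It made up 11.1, 11.8 and 12.1% of Defa counts in germ-free Milli-Q libraries against 9.50, 9.76 and 8.75% in SPF Milli-Q libraries. On zinc water it made up 9.10, 9.54, 9.62 and 11.4% in germ-free against 9.29, 8.59 and 9.18% in SPF libraries. The groups did not overlap on Milli-Q water and overlapped on zinc water, with a mean difference of 1.61 percentage points (exact permutation p = 0.01, 700 label assignments). Without germ-free zinc replicate 4, the library at 11.4%, the difference was 1.36 points. The other cryptdin-related type members did not follow. The mean difference was -0.19 points for Defa39 (exact permutation p = 0.726) and -0.19 points for Defa29 (exact permutation p = 0.147). Defa38 shares 161 of the 60-base windows with Defa29 and 61 with Defa39, so the division of counts between them is uncertain. Without germ-free zinc replicate 4, Defa29 (-0.28 points, exact permutation p = 0.015) and Defa17 (0.09 points, exact permutation p = 0.035) also passed.

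The mean compositions of germ-free and SPF mice differed by 2.86% of Defa counts on Milli-Q water and 1.87% on zinc water, both below the median of 3.16% between libraries of the same group. Group means vary less than single libraries, so these distances are set side by side as a description only.

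**Figure D4:**
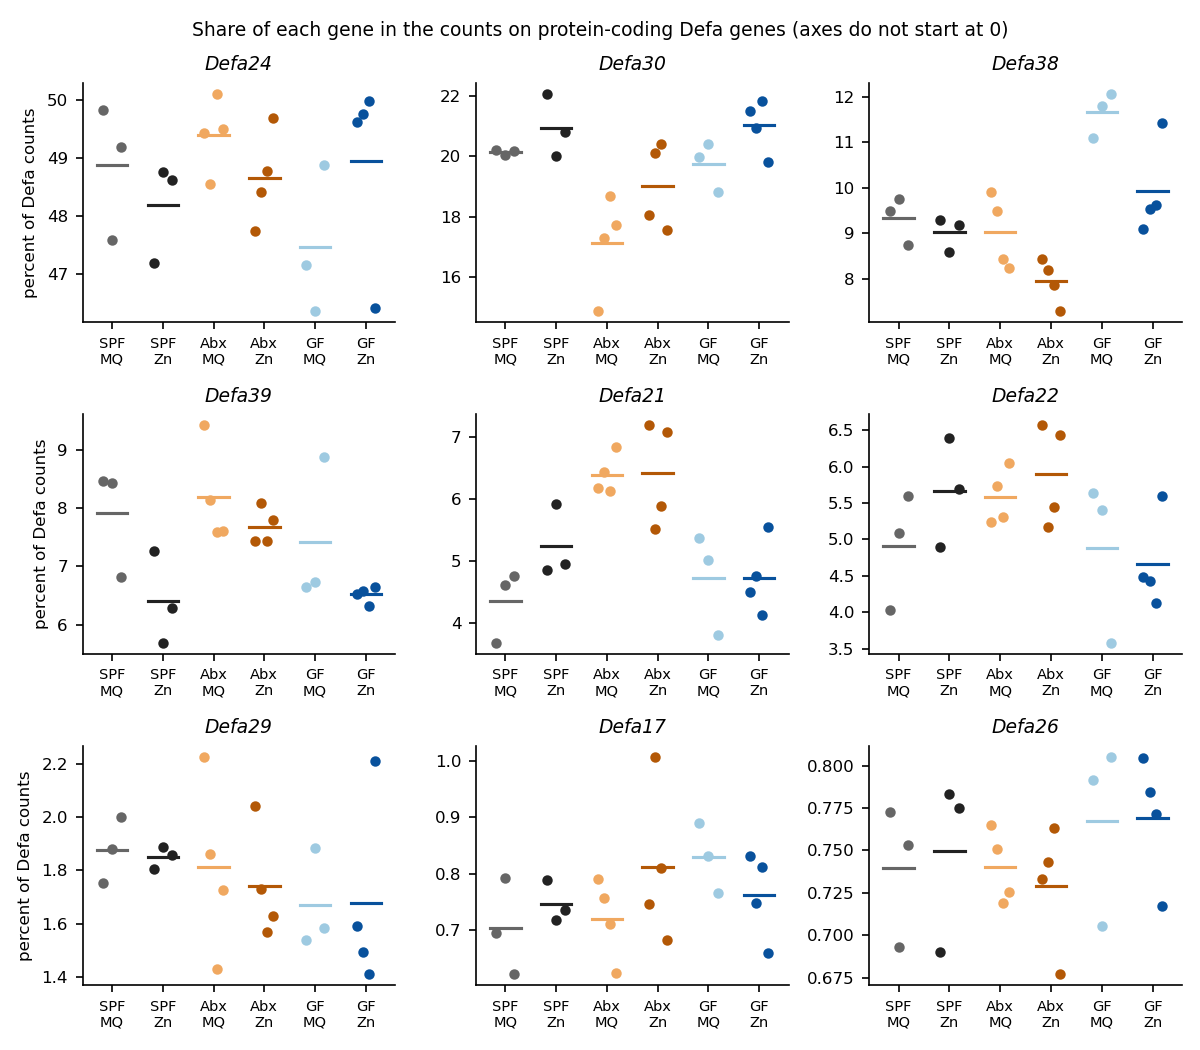
Percent of the counts on protein-coding Defa genes held by each of the 9 genes, by group (SPF, antibiotics Abx, germ-free GF; Milli-Q water MQ, zinc water Zn). Points are libraries, lines are group means, and the axes do not start at 0. On average, Defa38 is highest in germ-free Milli-Q libraries (11.1 to 12.1%) and Defa21 in the antibiotic groups (5.53 to 7.18%).

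Antibiotics, which deplete a microbiota already present, were not accompanied by a called rise of any member. Against SPF mice on Milli-Q water, 0 of 9 members passed in edgeR and 0 in DESeq2. There edgeR called 0.0459% of all genes higher and 0.153% lower. At an unadjusted p under 0.05 in edgeR were 1 member and 1062 of all 13070 genes. The members' log2 differences ran from -0.32 (Defa30) to 0.47 (Defa21). On zinc water 1 of 9 members was lower and 0 higher, where 4.21% of all genes were called lower and 4.76% higher. This was Defa38, at 2.42, 2.16, 2.35 and 1.85% of all counts after antibiotics against 3.38, 2.91 and 3.22% in SPF mice. The groups did not overlap and the log2 difference was -0.66 ± 0.20 (SE, adjusted p = 0.0445). Leaving out a library gave adjusted p between 0.0493 and 0.154, and only the fit without antibiotics zinc replicate 1 still passed. Without SPF zinc replicate 1 the difference was -0.54 (adjusted p = 0.154).

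The make-up of the family differed after antibiotics in Defa21 and Defa30. Defa21 made up 6.18, 6.43, 6.13 and 6.84% of Defa counts after antibiotics against 3.69, 4.63 and 4.76% in SPF mice on Milli-Q water, without overlap. On zinc water the values were 7.18, 5.53, 5.89 and 7.07% against 4.85, 5.91 and 4.95%, which overlapped. The mean difference was 1.61 percentage points (exact permutation p = 0.00245, 1225 label assignments). Defa30 went the other way, with 14.9, 17.3, 18.7 and 17.7% after antibiotics against 20.2, 20.04 and 20.2% in SPF mice on Milli-Q water. On zinc water it was at 18.1, 20.1, 20.4 and 17.6% against 22.1, 19.99 and 20.8%, a mean difference of -2.46 points over both waters (exact permutation p = 0.00571). Defa22, the near copy of Defa21, differed by 0.46 points (exact permutation p = 0.209), and Defa24, the near copy of Defa30, by 0.50 points (exact permutation p = 0.282). The 7 immune markers, of which Cd74 reached the highest count (5339 in a library), summed to 0.0312 to 0.0392% of counts in the antibiotics Milli-Q libraries and 0.0024 to 0.00822% in SPF Milli-Q libraries. They were at 0.00101 to 0.0232% and 0.00344 to 0.00629% on zinc water, with Ptprc, Cd3e, Cd79a, Jchain and Igkc at 0 in some libraries. No library held more than 31 counts of Ptprc, 203 of Lyz2 or 5 of each of Cd3e, Cd79a, Jchain and Igkc. The sums in the antibiotics Milli-Q libraries thus rest mostly on Cd74. The part of these markers in the result was not tested.

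Because the close pairs share reads, their ratios of counts were also described, a choice made after the values were seen and carrying no test. Defa21 over Defa22 was 0.85 to 0.916 in SPF Milli-Q, 0.871 to 0.992 in SPF zinc, 1.12 to 1.18 in antibiotics Milli-Q and 1.07 to 1.10 in antibiotics zinc libraries. All 8 antibiotic libraries were above all 6 SPF libraries, and the germ-free libraries (0.928 to 1.08) overlapped both. Defa38 over Defa39 was 1.36 to 1.75 in the germ-free groups, 1.12 to 1.51 in the SPF groups and 0.936 to 1.17 in the antibiotic groups. Defa38 over Defa29 averaged 7.03 ± 0.698 (SD, n = 3) in germ-free Milli-Q libraries against 4.995 ± 0.553 (SD, n = 3) in SPF Milli-Q libraries. Defa30 over Defa24 was lowest in antibiotics Milli-Q libraries, 0.301 to 0.373, against 0.405 to 0.421 in SPF Milli-Q libraries.

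**Figure D5:**
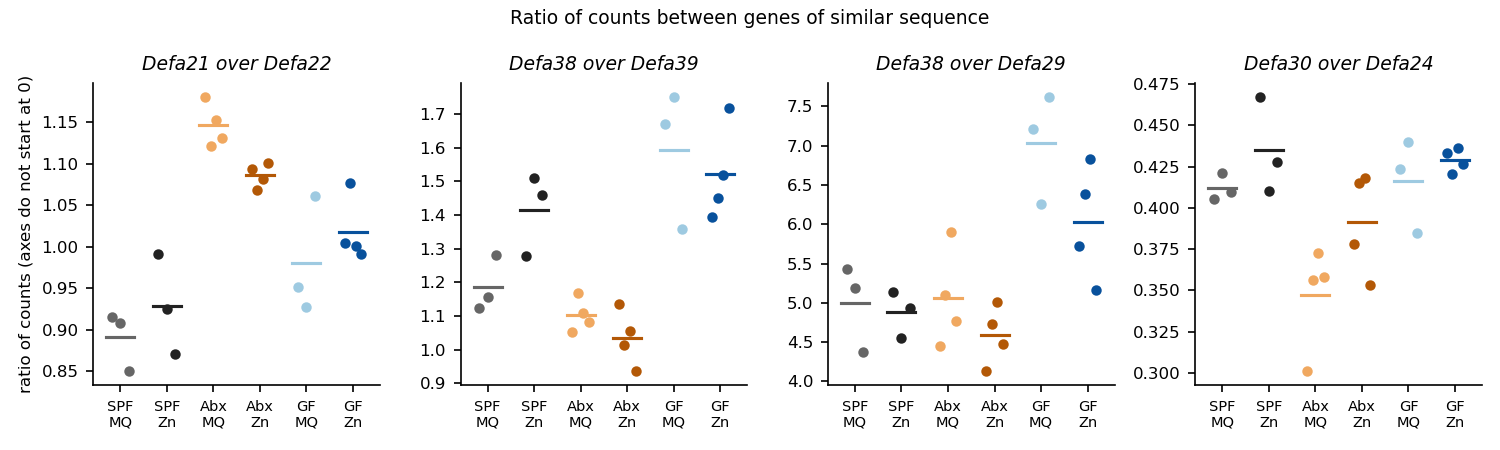
Ratio of counts between members of similar sequence, by group (abbreviations as SPF, antibiotics Abx, germ-free GF, Milli-Q MQ and zinc Zn). Points are libraries, lines are group means, and the axes do not start at 0. Defa21 over Defa22 is at least 1.07 in all antibiotic libraries and below 1 in all SPF libraries.

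Zinc was not accompanied by a called change of any member. In SPF mice 0 of 9 members passed in edgeR and 0 in DESeq2, where edgeR called 0.0612% of all genes higher and 0.0765% lower. At an unadjusted p under 0.05 in edgeR were 3 members and 665 of all 13070 genes. The members' log2 differences had a median of 0.44 and ran from 0.16 (Defa39) to 0.71 (Defa21). Defa39 turned to -0.04 without SPF zinc replicate 1 and under library totals, and Defa24 moved from 0.41 to 0.22 without SPF Milli-Q replicate 2. The highest was Defa21, at 1.77, 2.00 and 1.74% of all counts on zinc against 1.15, 1.12 and 1.59% on Milli-Q water. These groups did not overlap, and the log2 difference was 0.71 ± 0.24 (SE, adjusted p = 0.496). The 10 enterocyte markers were at 0.0955 to 0.162% of counts in SPF zinc and 0.0327 to 0.0764% in SPF Milli-Q libraries, and their part in these values was not tested. After antibiotics 0 of 9 members passed in edgeR and 0 in DESeq2, although edgeR called 10.2% of all genes higher and 11.5% lower. At an unadjusted p under 0.05 in edgeR were 0 members and 4745 of all 13070 genes. The median log2 difference of the members was 0.05. In germ-free mice 0 of 9 passed in edgeR and 0 in DESeq2, where edgeR called 5.88% of all genes higher and 5.47% lower. At an unadjusted p under 0.05 in edgeR were 1 member and 3765 of all 13070 genes. The members had a median log2 difference of -0.19. The lowest was Defa38, at 3.79, 3.97, 3.79 and 4.80% of all counts on zinc against 4.89, 5.25 and 5.17% on Milli-Q water. Its groups did not overlap, and the log2 difference was -0.43 ± 0.20 (SE, adjusted p = 0.165).

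No member's zinc difference was called to depend on the microbiota. The difference of the zinc effect between antibiotic-treated and SPF mice had 0 of 9 members called in edgeR, 0 at an unadjusted p under 0.05 and 0 in DESeq2. Between germ-free and SPF mice the numbers were 0, 4 and 0. In edgeR 0% of all genes were called in both interactions, with 2418 and 1740 genes at an unadjusted p under 0.05, and DESeq2 called 266 and 38 genes. The differences for the members ran from -0.63 to -0.17 and from -0.91 to -0.52 on the log2 scale. The lowest was Defa22 between germ-free and SPF mice, at -0.91 ± 0.34 (SE, adjusted p = 0.276).

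Within the family, zinc went with a lower share of Defa39 and Defa38 and a higher share of Defa30 in all 3 microbiome contexts. Defa39 made up 8.46, 8.44 and 6.82% of Defa counts in SPF Milli-Q and 7.26, 5.70 and 6.28% in SPF zinc libraries. After antibiotics it made up 9.42, 8.13, 7.59 and 7.61% on Milli-Q water and 7.43, 8.08, 7.44 and 7.79% on zinc. In germ-free mice the shares were 6.64, 6.74 and 8.88% on Milli-Q water and 6.52, 6.58, 6.33 and 6.65% on zinc. The libraries overlapped in each context, and the mean difference was -0.97 percentage points (exact permutation p = 0.0131, 49000 label assignments). Defa38 differed by -1.04 points (exact permutation p = 0.00494), through -0.31 in SPF, -1.07 in antibiotic-treated and -1.74 in germ-free mice. Defa30 differed by 1.32 points (exact permutation p = 0.0078), through 0.81, 1.89 and 1.28 points. For Defa30 the call was lost in edgeR on counts scaled by the Defa sum (unadjusted p = 0.112), which for Defa38 and Defa39 gave unadjusted p of 0.0306 and 0.0154. The leading gene Defa24 differed by 0.02 points (exact permutation p = 0.971). The mean compositions differed by 2.64% of Defa counts between waters, by 3.40% between antibiotics and SPF, and by 2.36% between germ-free and SPF mice.

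The other genes of defensin processing and Paneth cell control were measured beside the members. Mmp7, the activating protease, took 0.355% ± 0.0437 (SD, n = 3) of counts in SPF Milli-Q and 0.310% ± 0.0143 (SD, n = 3) in germ-free Milli-Q libraries. Its difference was 0.74 ± 0.23 (SE, adjusted p = 0.0219) under TMM and turned to -0.20 (adjusted p = 0.254) under library totals. Of 16 such genes, 3 were called higher (Mmp7, the zinc transporter gene Slc30a2 at 1.18 and the transcription factor gene Gfi1 at 0.63) and 2 lower (the Wnt receptor gene Fzd5 at -0.84 and the bacterial sensor gene Nod2 at -2.05) in germ-free against SPF mice on Milli-Q water. Among all genes 12.7% were called higher and 11.6% lower. The median of the 16 was 0.21 against -0.03 for all genes. Under library totals Gfi1 turned to -0.34, Slc30a2 was at 0.23, and Fzd5 and Nod2 were at -1.79 and -3.04. The tally changed with the scaling, to 0 of 16 higher and 11 lower under library totals, with a median of -0.75 (Tcf7l2, Tcf7, Ctnnb1, Fzd5, Sox9, Atoh1, Xbp1, Nod2, Myd88, Ripk2 and Atg16l1). Under that scaling 0.566% of all genes were called higher and 70.8% lower, so 11 of 16 lower was close to the share of all genes. On zinc water 1 of 16 was higher, where 3.47% of all genes were called higher and 2.38% lower. This was Myd88 at 0.55, which turned to -0.07 under library totals. There the tally was 0 higher and 6 lower (Tcf7l2, Tcf7, Ctnnb1, Fzd5, Sox9 and Atg16l1), where 0.245% of all genes were called higher and 48% lower.

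Zinc after antibiotics gave 4 lower (Myd88 at -0.69, Atg16l1 at -0.55, Tcf7l2 at -0.48 and Sox9 at -0.40) and 1 higher gene of the 16 (Slc30a2 at 0.41), where 10.2% of all genes were called higher and 11.5% lower. Under library totals only Myd88 and Atg16l1 stayed called, while Sox9 (adjusted p = 0.0502), Tcf7l2 (adjusted p = 0.0617) and Slc30a2 (0.26, adjusted p = 0.34) did not pass. Zinc in germ-free mice gave 1 higher gene, Fzd5 at 0.69, where 5.88% of all genes were called higher and 5.47% lower. The zinc contrast in SPF mice and both antibiotic contrasts gave 0 of 16 in edgeR. Tcf7l2 encodes a Wnt effector, Sox9 a factor needed for Paneth cells, Atg16l1 an autophagy protein and Myd88 an adaptor of microbial sensing.

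Under TMM most other granule products rose in germ-free against SPF mice on Milli-Q water. Of 10 genes, 7 were higher and 1, Mptx2, was lower, with a median of 1.09, where 12.7% of all genes were called higher and 11.6% lower. Under library totals 3 were higher (Itln1, Ang4 and Pnliprp2) and 2 lower (Mptx1 and Mptx2), with a median of 0.14. With that scaling 0.566% of all genes were called higher and 70.8% lower. Itln1, encoding intelectin, was higher by 1.62 (0.68 under library totals) and Lyz1 by 1.08 (0.15 under library totals, adjusted p = 0.405). Pnliprp2 was higher by 2.00 and the ribonuclease gene Ang4 by 1.39. Mptx2, encoding a mucosal pentraxin, was at -0.84 in germ-free mice and -1.64 after antibiotics, both on Milli-Q water. On zinc water 5 of the 10 were higher in germ-free mice and 1, again Mptx2, was lower, and under library totals 1 (Pnliprp2) and 1 (Mptx2). Among all genes on zinc water, 3.47% were higher and 2.38% lower under TMM, and 0.245% and 48% under library totals. Of the other protein-coding Defa genes 11 passed the filter on low counts, and 9 of these were higher in germ-free mice on Milli-Q water and 4 on zinc water. Under library totals 4 were higher and 1, Defa34, lower on Milli-Q water, and 0 on zinc water.

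Of 9197 other protein-coding genes with a mean of at least 5 CPM, those most like the summed members over the 21 libraries were Ang4 (Pearson r = 0.99 of log2 TMM-scaled CPM), Clps (0.98), Itln1 (0.97), Spink4 (0.97) and Pnliprp2 (0.97). After subtracting group means, r was 0.94, 0.87, 0.82, 0.84 and 0.83. The lowest were L1cam (-0.94), Tmem238l (-0.91), Ttc3 (-0.91), Stil (-0.89) and Wsb1 (-0.89). The libraries share group differences and the scaling, so these values describe likeness of pattern only.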

How the data were processed

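RNA of sorted Paneth cells was sequenced from poly(A) libraries (TruSeq stranded mRNA). The authors deposited raw read counts per Ensembl gene for 21 libraries, with no normalization. The submitters' processing notes name FastQC 0.12.0, STAR 2.7.0a, DESeq2 and build mm39. The counting tool and the handling of strand and of reads with several matches are not given in the sources used here. Identifiers were matched to GENCODE M39 (54749 of 55414), and 0.0164% of counts lay on unmatched ones.

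The members and gene lists were chosen with earlier results of these data known. Members were named whatever their values. Lists were described by counts, with values for genes past the threshold, and likeness by the 5 highest and 5 lowest correlations.

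Levels were tested with edgeR 4.0.16 (R 4.3.3, TMM, filterByExpr, quasi-likelihood F-test, 1 coefficient per group, Benjamini-Hochberg adjustment over 13070 genes, threshold 0.05). The same fit was also run on simulated counts, with mean levels and dispersions taken from these data. Shares of Defa counts were compared by exact permutation, two-sided and stratified. Sequences came from GRCm39, alignments from MAFFT 7.526, and promoter backgrounds from RefSeq. Alternatives were DESeq2 1.42.0, other scalings, filters, denominators and windows, a replicate block, and leaving out each library.

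Depths were 9888174 to 16896714 counts per library, and percentages of counts rest on these totals.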

Additional observations from a re-analysis of the deposited data

Results flagged for a closer look

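Groups of 4 libraries were searched for a value whose gap to its nearest neighbour exceeded Dixon's limit, and 2 of 57 such groups held one, where chance gives about 1 in 20. In germ-free zinc replicate 4, Defa24 held 46.4% of Defa counts, against 49.6 to 49.99% in the other 3 libraries of its group. In germ-free zinc replicate 3, the sum of the protein-coding Defa genes was 39.3% of all counts, against 41.6 to 42.0% in the other 3 libraries.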

How the results depend on the processing

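The count of members called was unchanged within 1.5 times under most alternatives. The exceptions were all on zinc water. For antibiotics against SPF mice, 1 member was called, against 0 with no filter on low counts, 0 with the replicate block, 2 with library totals only and 3 with DESeq2, and 0 to 1 with 1 library left out. For germ-free against SPF mice, 7 members were called, against 1 with library totals only and 0 to 8 with 1 library left out. The cause was not tested, other than that leaving out a library leaves fewer samples. Under library totals the median log2 difference of all genes was -0.99 for germ-free against SPF mice on Milli-Q water and -0.61 on zinc water. Of 579 values of single genes and of unique sequence under other settings, 12 lost a call and 5 gained one. A further 12 changed sign with neither value past the threshold, 3 were unique-sequence medians at other window lengths, and 0 reversed a call. With 1 library left out, 29 of 864 values of single genes lost a call and 7 gained one. In 63 the sign changed with neither value past the threshold, and 0 reversed a call. With 1 library left out, all 6 family shares at or under 0.05 stayed there, and Defa38 after antibiotics also passed without antibiotics Milli-Q replicate 1 (exact permutation p = 0.0214) or SPF Milli-Q replicate 3 (exact permutation p = 0.0343), as did Defa39 without SPF zinc replicate 1 (exact permutation p = 0.0457).

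No pairing by replicate number was seen. Of 48 same-numbered pairs of libraries, 7 correlated above 0.1 in their deviations from group means (median r 0.02), against 26 of 135 pairs with other numbers. Such correlations cannot show whether samples of a number were handled together. The numbers are those of the sample titles, which differ from the column names in the germ-free Milli-Q group. With the replicate block, members called were 9 for germ-free against SPF on Milli-Q water, 7 on zinc water, and 0 in all other comparisons. In the Defa-scaled fit with the replicate block, Defa21 had an unadjusted p of 0.00122 for antibiotics against SPF mice. The share of unique sequence rose with window length, from a median of 42.1% of windows of 40 bases to 84.3% of windows of 100 bases.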
